A study of Mus musculus with 9 samples.

Results

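The genes described here are the 169 solute carriers outside the mitochondrial Slc25a family that were measured above a low level in splenic type 2 dendritic cells of the mouse. They were all gene symbols made of Slc and a digit, without those that begin with Slc25a, and they were chosen by their measured mean of at least 10 read counts over the 9 libraries. Of 24054 genes listed, 327 symbols fitted the pattern, of which 69 were never counted and a total of 158, these included, stayed below the mean of 10. Just below it lay Slc24a5 with a mean of 9.56 counts and Slc46a1 with 9.67, and just above it Slc23a3 with 10.7 and Slc4a10 with 10.9. A mean of at least 10 counts in every group was held by 154 members, while 15 reached the overall mean through 1 or 2 groups only, and for those 15 a difference between groups is partly built into the choice.

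Solute carriers are membrane proteins that move small molecules and ions, either down their gradient, in exchange for another solute, or together with an ion such as sodium or a proton. They supply cells with sugars, amino acids, nucleosides, vitamins and metals, export lactate and iron, and set the ion content and acidity of the cytosol and of lysosomes. In dendritic cells, lysosomal carriers also take part in the signalling of endosomal Toll-like receptors. By family number the members fell into 27 carriers of amino acids, 29 of inorganic ions and pH, 25 of metals, 21 of the Slc35 family (mostly nucleotide sugars), 15 of sugars, 11 of vitamins and cofactors, 10 of organic ions and vesicular substrates, 9 of carboxylates, 6 of lipids and bile acids, 5 of nucleosides, 3 of peptides and 2 of phosphate. The urea transporter Slc14a1 stood alone, and 5 members (Slc9a3r1, Slc9a3r2, Slc7a6os, Slc4a1ap and Slc2a4rg-ps) matched the symbol pattern but are not transporters.

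All libraries came from spleens of C57BL/6 mice homozygous both for Clec9a-Cre and for a Rosa-tdTomato reporter, so that a TOMATO-positive (TOM+) cell is one whose lineage had expressed Cre from the Clec9a locus. Cells were sorted as live, single, not autofluorescent, and positive for MHCII, CD11c and CD11b. Of the 3 groups of 3 libraries, the first held TOM+ cDC2 and the second TOM- DC2, both of postnatal day 8, and the third held TOM+ cDC2 of adults aged 8 or 9 weeks. Spleens of the young mice were pooled, and p-values below measure the spread between these libraries.

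Read counts on genes ranged from 12783252 to 22809401 per library. The dendritic cell gene Zbtb46 stood at 112 to 159 TPM (RSEM's transcript abundance, scaled by transcript length and to a fixed total per library) in all 9 libraries. Other genes of the cDC2 list differed by age, with Esam at 14.4 to 27 TPM in young TOM+, 23.2 to 37.9 TPM in young TOM- and 72.6 to 90.7 TPM in adult libraries. Cd209a stood at 198 to 234, 146 to 181 and 341 to 641 TPM in the same order. The summed TPM of 5 T cell genes was 0.89 to 6.54. The B cell gene Cd79b stood at 58.5 to 68.2 TPM in young and 25.3 to 35.6 TPM in adult libraries. Other genes of the B cell list went the other way with age, as given with the age comparisons below. In the TOM- group, library 1 stood apart, with a summed TPM of 701 for erythroid genes and 38.1 for neutrophil genes against at most 46.5 and 1.78 in the other libraries. Scaling by library size alone in place of TMM (trimmed mean of M values) factors, which were 1.025 to 1.085 in young and 0.894 to 0.928 in adult libraries, moved the median log2FC over all 14452 genes tested from 0.05 to 0.25 for young TOM+ against adult and from 0.07 to 0.29 for young TOM- against adult. All log2FC below use TMM factors.

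Solute carriers were expressed over a wide range. Mean TPM over the 9 libraries was at least 1 for 145 members, at least 10 for 89 and at least 100 for 8, the median member stood at 10.5 TPM, and the 10 highest members made up 44.1% of the summed TPM of all 169. The highest was Slc46a3, a lysosomal carrier, with 436, 355 and 348 TPM in young TOM+ cDC2, 455, 360 and 358 TPM in young TOM- DC2 and 613, 557 and 582 TPM in adult cDC2. Next came Slc3a2, the heavy chain (CD98) that carries several amino acid exchangers to the cell surface, with 266, 285 and 360 TPM, then 320, 365 and 423 TPM, and 467, 500 and 540 TPM in the same order of groups. For both genes each adult library lay above every young library.

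The neutral amino acid transporter Slc38a2 stood at 247 to 275 TPM in young TOM+, 251 to 277 TPM in young TOM- and 179 to 267 TPM in adult libraries, and the glutamine transporter Slc1a5 at 118 to 151 TPM over all libraries. The choline transporter-like Slc44a2 reached 288 to 296 TPM in adults and 152 to 212 TPM in the young groups. Slc9a3r1, a scaffold protein that binds the Na+/H+ exchanger and is not itself a carrier, ranged from 163 to 234 TPM. The nucleotide sugar carrier relatives Slc35c2, Slc35a4, Slc35b1 and Slc35b2 and the equilibrative nucleoside transporter Slc29a1 were also among the 12 highest, and Slc15a4, the lysosomal peptide and histidine carrier needed for signalling by endosomal Toll-like receptors, completed them.

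**Figure D1:**
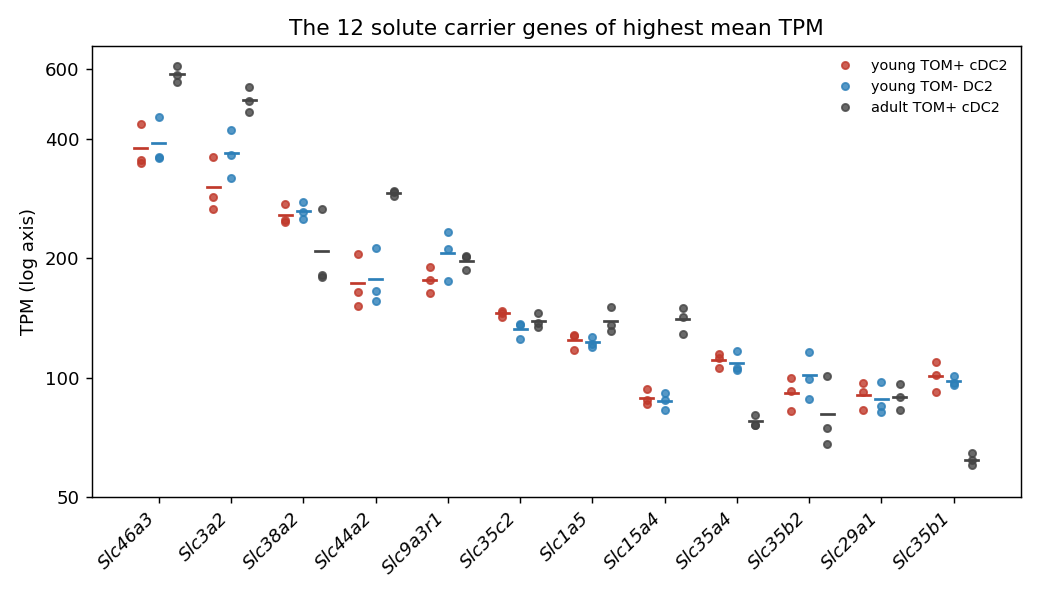
TPM on a log axis of the 12 solute carrier genes of highest mean TPM, with a point for each library and a bar at the group mean of 3 libraries, coloured by group. Slc46a3, Slc3a2, Slc44a2, Slc1a5 and Slc15a4 were higher in every adult library than in any young library, and Slc35a4 and Slc35b1 were lower.

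Summed over all members, TPM were 4512 ± 125 (SD, n = 3) in young TOM+ cDC2, 4717 ± 203 in young TOM- DC2 and 4780 ± 223 in adult cDC2, with ranges of 4377 to 4625, 4483 to 4851 and 4639 to 5037 TPM. The ranges of the young groups overlapped, as did those of young TOM- and adult libraries. Carriers of vitamins and cofactors summed to 667 ± 87.0, 692 ± 98.0 and 982 ± 19.3 TPM in these groups, mainly through Slc46a3 and Slc44a2. Members were classed by family number and not by their own substrate, Slc46a3 among them, so the sum is no measure of vitamin transport. Carboxylate carriers summed to 130 ± 8.71, 135 ± 11.2 and 80.3 ± 16.8 TPM. The Slc35 family was lower in adults, at 609 ± 21.3 TPM against 730 ± 10.7 and 719 ± 20.6 TPM in the young groups, and so were metal carriers, at 481 ± 19.9 TPM against 559 ± 12.6 and 585 ± 25.5 TPM. The 3 peptide carriers summed to 171 ± 2.85 TPM in adults against 120 ± 4.52 and 126 ± 5.43 TPM. These sums are a description without a test.

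**Figure D2:**
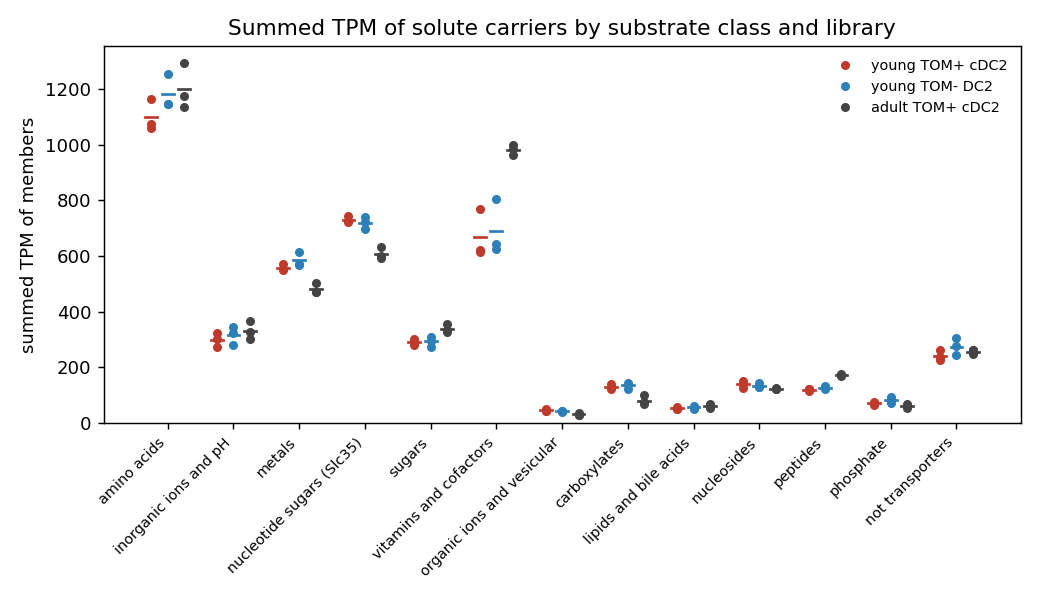
Summed TPM of the solute carriers of each substrate class, with a point for each library and a bar at the group mean of 3 libraries. In vitamins and cofactors, sugars and peptides the adult libraries lay above all young libraries, and in metals, the Slc35 family, carboxylates, organic ions and nucleosides they lay below them.

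Among members with a mean of at least 1 TPM, the SD between libraries of a group had a median of 11% of the mean in young TOM+, 11.2% in young TOM- and 11.7% in adult libraries. Within a group some members varied far more. Slc15a2, a proton-coupled peptide transporter, was at 5.15, 0.51 and 10.9 TPM in the 3 adult libraries, and Slc14a1 at 39, 30.5 and 83.2 TPM. Neither passed the test between ages, with padj = 0.322 for Slc15a2 and padj = 0.461 for Slc14a1 in young TOM+ against adult cDC2. Without adult library 2, Slc15a2 passed as lower in young TOM+ cDC2 (log2FC -1.30 in place of -0.78, padj = 0.00482). Without adult library 3, Slc14a1 passed as higher in young TOM+ (log2FC 0.77 in place of 0.26, padj = 0.00106) and in TOM- cells (log2FC 0.99 in place of 0.47, padj = 0.000297).

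The first comparison asked which solute carriers differ between the TOM+ and TOM- cells of young mice, sorted through the same gate. A member passed at an adjusted p (padj, Benjamini-Hochberg over all 14452 genes tested) under 0.05 in the quasi-likelihood test of edgeR, and was called where log2FC was also beyond 1. No member was higher in TOM+ cDC2, where 0.125% of all genes passed, and 5 were lower, which is 2.96% of the members, where 1.47% of all genes passed. In these counts 0 members were called higher and 3 were called lower, beside 0.0208% and 1.16% of all genes. Of the lower members, 2, both called, were among the 15 with a mean under 10 counts in a group. For these a difference is partly built into the choice. Among the other 154 members, 3 passed as lower and 1 was called lower. Among all 11818 genes with a mean of at least 10 counts, 1.68% passed as lower and 1.29% were called lower. At an unadjusted p under 0.05 there were 23 members, which is 13.6%, beside 9.38% of all genes. DESeq2 had 0 members higher and 9 lower, the latter 5.33%, where 0.422% of all genes were higher and 2.12% lower. The median log2FC of the members was -0.01 beside 0.00 for all genes.

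The largest difference was in a gene nearly confined to TOM- DC2 among these libraries. Slc28a3, the concentrative nucleoside transporter of widest substrate range, stood at 0.04, 0 and 0.07 TPM in TOM+ cDC2, 4.37, 4.93 and 6.32 TPM in TOM- DC2 and 0 in all 3 adult libraries. Its log2FC for TOM+ against TOM- was -6.94 ± 0.43 (SE; padj = 2.35e-05). Slc28a3 is among the 15 members with a mean under 10 counts in a group. It reached the overall mean through the TOM- group only, so this difference is partly built into the choice. Every TOM- library lay above every other library. Against adults, in which Slc28a3 had no count, TOM- DC2 were at least 184-fold higher, from a floor of 3 counts over the group.

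Slc27a2, which imports and activates very long chain fatty acids, stood at 1.12, 0.58 and 0.89 TPM in TOM+ and 4.77, 3.41 and 4.67 TPM in TOM- libraries, with log2FC -2.23 ± 0.44 (padj = 0.0233). Its adult libraries were spread over 2.26, 6.40 and 1.76 TPM, so that they overlapped the TOM- group and all lay above the TOM+ group (log2FC -2.09, padj = 0.00301, for young TOM+ against adult). Slc27a2 lost its call between the young groups when TOM+ library 2 or 3 or TOM- library 3 was left out, with padj = 0.112, 0.0925 and 0.102. It also missed the threshold by limma on log2(TPM + 1) (padj = 0.0705). Without adult library 2, its log2FC for young TOM+ against adult was -1.29 (padj = 0.00772), and that for TOM- DC2 against adult went from 0.15 (padj = 0.799) to 0.94 (padj = 0.0283).

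Smaller differences passed for 2 members of higher level. Slc11a1 (NRAMP1), which moves iron and manganese out of the phagosome, stood at 14.1, 14.3 and 12.2 TPM in TOM+, 21.9, 25.7 and 21.9 TPM in TOM- and 12.9, 13.5 and 10.7 TPM in adult libraries. The TOM- libraries were the highest 3 of the 9, with log2FC -0.77 ± 0.14 (padj = 0.0115) for TOM+ against TOM-. Without TOM+ library 3 or TOM- library 2 its padj was 0.0703 and 0.0553. Slc6a13 (GAT2, a carrier of GABA and taurine) stood at 12.5, 11 and 11.9 TPM in TOM+, 18.7, 17.8 and 16.3 TPM in TOM- and 12.4, 10.5 and 11.5 TPM in adult libraries, with log2FC -0.54 ± 0.11 (padj = 0.0220). It missed the threshold without any 1 of the 6 young libraries, with padj between 0.0601 and 0.122. Slc6a12 (BGT1, a carrier of betaine and GABA), its neighbour on chromosome 6, stood at 11.6, 9.27 and 10.4 TPM in TOM+ and 18.3, 13.8 and 18.6 TPM in TOM- libraries, also without overlap, and had log2FC -0.64 with padj = 0.0551, and it passed in 7 of 19 alternatives.

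**Figure D3:**
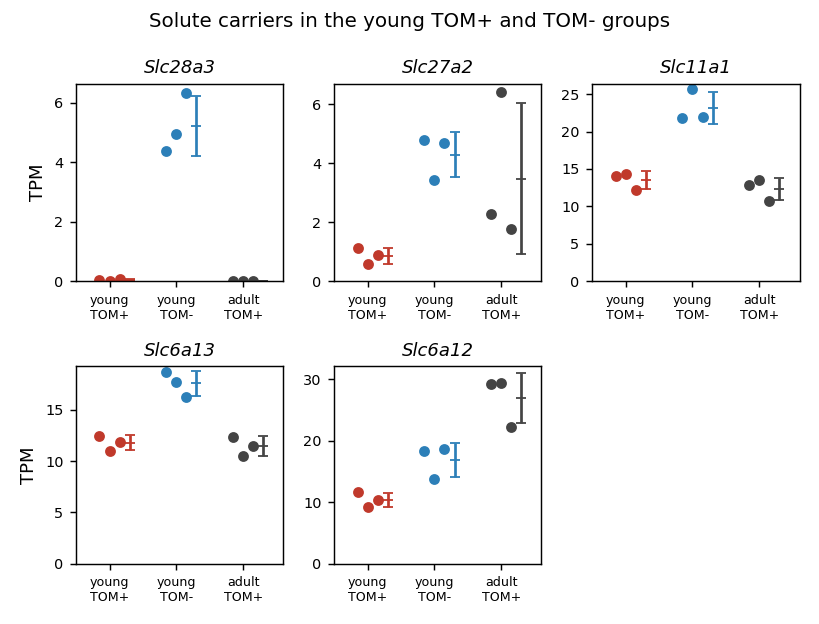
TPM in each of the 3 libraries of each group (points) with mean and SD (bar and whisker) for 4 solute carriers that passed the test between young TOM+ and TOM- cells and for Slc6a12, whose padj was 0.0551. Slc28a3 lay at or near 0 outside the TOM- group, and Slc11a1 and Slc6a13 stood at a like level in young TOM+ and adult cDC2.

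Same-numbered libraries of the young groups tended to deviate together, though the pair numbered 91 did so no more than 1 unlike-numbered pair (r = 0.179 and 0.185). With that number as a replicate block 4 members passed as higher and 16 as lower in TOM+ cDC2, the 5 that passed without it among them. The members that passed with the block and not without it included Slc6a12 (padj = 0.000441), the magnesium carrier Slc41a1 (log2FC -0.63, padj = 1.26e-05), the iron exporter Slc40a1 (ferroportin, log2FC -0.77, padj = 0.000429), Slc4a11 (log2FC -1.36, padj = 0.000562), Slc4a8 (log2FC -0.58, padj = 0.00225) and Slc3a2 (log2FC -0.25, padj = 0.00714) on the lower side. Of these, Slc6a12, Slc41a1, Slc4a11 and Slc4a8 also passed by DESeq2. Slc29a3, a lysosomal nucleoside transporter (log2FC 0.29, padj = 0.00701), the lactate transporter Slc16a1 (log2FC 0.53, padj = 0.0406), the amino acid exchanger Slc7a5 (log2FC 0.22, padj = 0.0428) and Slc35e4 (log2FC 0.52, padj = 0.0407) were higher.

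Other cell type genes moved with this comparison. Of 6 genes tested from a list for innate lymphoid cells of type 3, 2 passed as lower in TOM+ cDC2 (Il1r1 and Gata3), the summed TPM of 7 genes of the list was 3.26 to 4.34 in TOM+, 11.3 to 12 in TOM- and 3.63 to 5.53 in adult libraries, and Il22 was at 0 in all libraries. Il1r1, a receptor for interleukin 1, was at 0.15 to 0.31 TPM in TOM+ and 3.57 to 4.15 TPM in TOM- libraries. The summed TPM of 7 red pulp macrophage genes was 154 to 198 in TOM+, 248 to 303 in TOM- and 86.3 to 128 in adult libraries, with none passing between the young groups, 5 having an unadjusted p under 0.05 and the list's gene Cd5l at most 0.54 TPM. The B cell gene Ms4a1 was lower in TOM+ cDC2, at 2.04 to 2.77 TPM against 6.02 to 10.4 TPM (log2FC -1.59, padj = 0.00178). So were Irf8 of the cDC1 list, at 20.3 to 26.5 against 39.1 to 44.2 TPM (log2FC -0.77, padj = 0.00275), and Ltb of the cDC2 list (log2FC -0.52, padj = 0.00871). Each was the 1 gene of its list that passed, and other genes of both lists went the other way. The 6 cDC1 genes had a median log2FC of 0.05 and a highest of 0.58. For the 12 cDC2 genes these were 0.06 and 0.49. The part of these cells in the differences was not tested, and in bulk libraries more cells of a type and more RNA per cell cannot be told apart. The promoter windows of the moved genes were read for AGGTCA, core letters bound by many nuclear receptors, on both strands of the 250 bases before each annotated start. It was present in 3 of 6 starts of the 4 genes that matched the table (Slc11a1, Slc27a2 and Slc6a13), and in 14.0% of 32851 starts of all genes. Slc28a3 and Slc27a2 are shown because they had called differences and a start that matched the gene's own end, with AGGTCA or its reverse in capitals, 5′ to 3′ in the direction of the gene and taken from RefSeq on GRCm38.p6, at chr13:58610878-58611127 on the minus strand and chr2:126552774-126553023 on the plus strand. The Slc28a3 window held no match, which says only that these letters are not in it.
Slc28a3 upstream: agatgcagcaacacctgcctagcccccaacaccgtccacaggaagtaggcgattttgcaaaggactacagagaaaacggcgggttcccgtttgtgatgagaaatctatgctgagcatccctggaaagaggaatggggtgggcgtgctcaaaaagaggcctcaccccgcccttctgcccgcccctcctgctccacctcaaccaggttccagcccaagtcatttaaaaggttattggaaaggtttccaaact
Slc27a2 upstream: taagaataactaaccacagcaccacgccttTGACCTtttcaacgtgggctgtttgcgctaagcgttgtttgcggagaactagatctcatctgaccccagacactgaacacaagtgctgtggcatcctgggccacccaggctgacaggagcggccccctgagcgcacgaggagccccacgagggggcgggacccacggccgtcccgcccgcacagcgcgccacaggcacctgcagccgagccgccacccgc

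The second comparison asked how solute carriers of TOM+ cDC2 differ between postnatal day 8 and adulthood, and the third set young TOM- DC2 against the same 3 adult libraries, so that these 2 comparisons share their controls. In TOM+ cDC2, 42 members were higher in young mice and 35 lower, which is 24.9% and 20.7% of the members, where 21.0% and 19.5% of all genes passed. Of these, 14 were called higher and 12 lower, which is 8.28% and 7.10%, where 5.96% and 6.86% of all genes were called. In the third comparison, in which age and TOM status cannot be told apart, 45 members were higher in young TOM- DC2 and 30 lower. That is 26.6% and 17.8% of the members, where 19.4% and 16.9% of all genes passed. Of the 45, 9 were among the 15 members with a mean under 10 counts in a group. Called were 15 as higher and 10 as lower, which is 8.88% and 5.92%, where 6.5% and 4.78% of all genes were called. Among the 11818 genes with the same mean of at least 10 counts, the shares that passed for young TOM+ cDC2 were 24.9% and 22.9%. For young TOM- DC2 they were 22.3% and 20.1%. The shares of members that passed in TOM+ cDC2 were near those of all genes. In TOM- DC2 the share that was higher, 26.6%, includes the 9 members of low mean in a group. For those a difference is partly built into the choice, and among the other 154 members 36 were higher. The median log2FC of the members was 0.11 in TOM+ cDC2 and 0.14 in TOM- DC2 against adult.

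The balance of directions rested on the scaling. With library size alone, 64 members were higher and 25 lower in young TOM+ cDC2, so that 71.9% of those that passed were higher in place of 54.5%, and limma on log2(TPM + 1) put this share at 67.6%. For TOM- DC2 the share was 60% with TMM, 78.9% with library size alone and 75.6% by limma. Without the 15 members of low mean in a group, 36 were higher and 33 lower in young TOM+ cDC2, and 36 and 28 in TOM- DC2. Proliferation genes moved with age as well, with a summed TPM over 6 genes of 764 to 819 in young TOM+, 717 to 771 in young TOM- and 403 to 470 in adult libraries. Of 12 cDC2 genes, 3 were higher and 8 lower in young TOM+ cDC2 than in adults, among the latter Esam (log2FC -2.21, padj = 7.16e-06) and Clec4a4 (log2FC -1.49, padj = 1.12e-06). Of 5 monocyte genes, 3 were higher in young TOM+ cDC2 and none passed in TOM- DC2, with a summed TPM of 280 to 315, 220 to 271 and 190 to 216. Cadm1 of the cDC1 list was higher in young TOM+ cDC2 (log2FC 1.56, padj = 1.43e-06) and Irf8 lower (log2FC -1.10, padj = 1.4e-05). Of 5 B cell genes tested, 2 were lower, among them Ms4a1 (log2FC -2.88, padj = 1.47e-06), and 1 was higher, Cd79b (log2FC 0.90, padj = 5.26e-05). The median log2FC of the 5 was -1.35. In TOM- DC2, 5 of 7 red pulp macrophage genes, 3 of 4 erythroid genes and 2 of 6 neutrophil genes were higher than in adults, beside 19.4% of all genes. The erythroid and neutrophil genes had their highest summed TPM in TOM- library 1, as given above. The part of these genes' cells in the differences below was not tested.

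**Figure D4:**
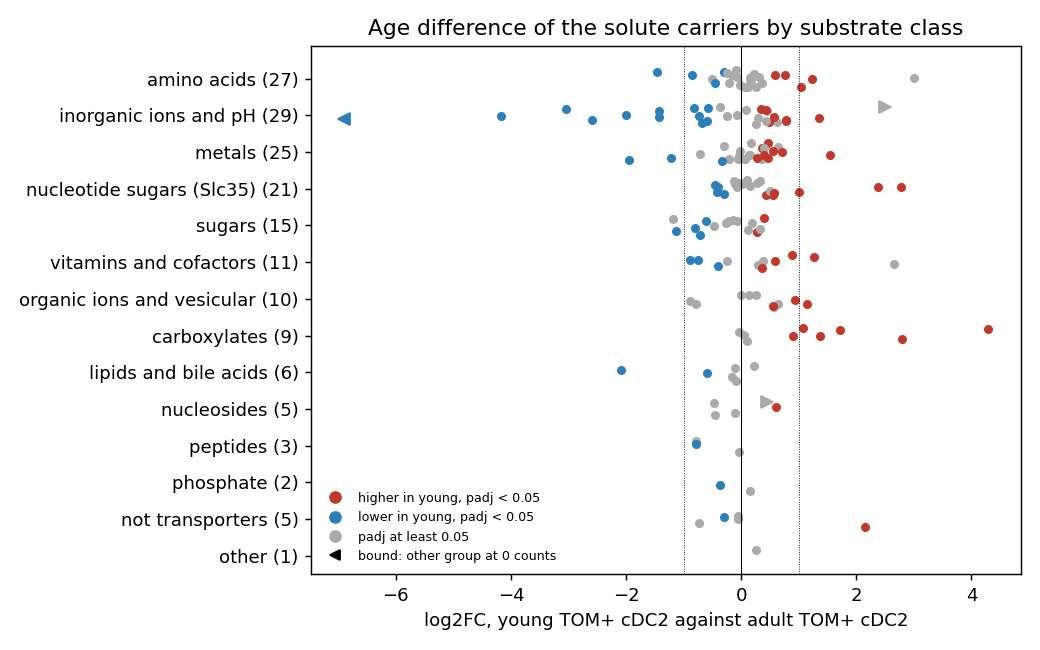
log2FC of young TOM+ against adult TOM+ cDC2 for the 169 solute carriers, with a point for each gene, in rows by substrate class with the number of members. Triangles mark bounds where a group had no count, and dotted lines stand at a log2FC of -1 and 1. Of 9 carboxylate carriers 6 passed as higher and none as lower, while 12 of 29 carriers of inorganic ions passed as lower. Of all genes 21.0% passed as higher and 19.5% as lower.

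Carriers of monocarboxylates and dicarboxylates that passed were higher in young cells. Of 9 members 6 were higher in young TOM+ cDC2 and none lower, where 21.0% and 19.5% of all genes passed, with a median log2FC of 1.07, and 6 were higher and none lower in TOM- DC2, with a median of 0.81. Some other classes also had passing members in 1 direction, such as organic ions and vesicular substrates with 3 of 10 higher in young TOM+ cDC2 and lipids and bile acids with 2 of 6 lower. With library size alone 6 were higher in TOM+ and 7 in TOM- cells, again with none lower. Slc16a3 (MCT4), the lactate exporter of glycolytic cells, stood at 47.4, 53.8 and 58.2 TPM in young TOM+, 40.5, 51.3 and 55.0 TPM in young TOM- and 22.7, 26.2 and 27.9 TPM in adult libraries. The young libraries lay above the adult ones without overlap (log2FC 0.90 ± 0.14, padj = 0.000341, in TOM+ and 0.77 ± 0.14, padj = 0.00121, in TOM- cells). Reads of Slc16a3 overlap those of Csnk1d over 1292 bases. The counting used no strand.

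Slc16a1 (MCT1), which carries lactate and pyruvate in either direction, stood at 6.64, 10.4 and 10.6 TPM in young TOM+, 7.14, 6.02 and 6.44 TPM in young TOM- and 3.40, 2.74 and 3.73 TPM in adult libraries, with log2FC 1.37 ± 0.20 (padj = 0.000165) and 0.81 ± 0.20 (padj = 0.00677). Slc13a3, a sodium-coupled carrier of succinate and other dicarboxylates, stood at 2.38, 1.67 and 2.04 TPM, then 2.26, 2.85 and 1.99 TPM, and 0.17, 0.34 and 0.26 TPM in adults, with log2FC 2.79 ± 0.32 (padj = 2.72e-05) and 3.0 ± 0.31 (padj = 2.04e-05). Slc16a14, a family member without a settled substrate, stood at 6.38 to 13.5 TPM in young TOM+ and 1.52 to 3.80 TPM in adult libraries (log2FC 1.72, padj = 0.000828). All of these were higher in every young than in every adult library. Slc13a3 is among the 15 members with a mean under 10 counts in a group, so its difference is partly built into the choice.

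Slc16a10, a carrier of aromatic amino acids and thyroid hormone, was higher in both young groups (log2FC 1.07 and 1.28, padj = 0.0137 and 0.00568), in TOM+ cells not without young library 2 or adult library 3 (padj = 0.0614 and 0.0618). The pyruvate carrier Slc16a7 did not pass, with log2FC -0.04 and 0.10. The accessory protein of these carriers, Emb (embigin), was at 221 to 235, 243 to 247 and 95.6 to 126 TPM (log2FC 0.90, padj = 1.62e-05, in TOM+), while for Bsg (basigin), their other partner, log2FC was 0.03 (padj = 0.841).

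The canonical E-box CACGTG, a sequence bound by MYC family factors among others, was looked for in the same windows on both strands, as a motif chosen after the results were known. It was present at 3 of 11 starts of the 9 called-higher genes that matched the table (Slc16a1, Slc13a3 and Slc12a7), at 1 of 15 starts of the 10 called-lower genes that matched, at 18 of 176 starts of all members and in 6.02% of all 32851 starts. The windows of Slc16a1 (chr3:104638414-104638663 on the plus strand) and Slc13a3 (chr2:165473198-165473447 on the minus strand) are shown as the carboxylate carriers among these, with CACGTG in capitals, from RefSeq on GRCm38.p6 and 5′ to 3′ in the direction of the gene. The match starts 200 bases before the start of Slc16a1 and 154 bases before that of Slc13a3, and is a description of letters, not evidence of binding.
Slc16a1 upstream: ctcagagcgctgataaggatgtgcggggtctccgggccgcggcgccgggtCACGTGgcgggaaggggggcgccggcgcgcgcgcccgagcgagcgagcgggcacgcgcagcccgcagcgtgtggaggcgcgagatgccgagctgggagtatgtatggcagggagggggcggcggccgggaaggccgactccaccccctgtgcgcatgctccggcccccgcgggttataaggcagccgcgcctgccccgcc
Slc13a3 upstream: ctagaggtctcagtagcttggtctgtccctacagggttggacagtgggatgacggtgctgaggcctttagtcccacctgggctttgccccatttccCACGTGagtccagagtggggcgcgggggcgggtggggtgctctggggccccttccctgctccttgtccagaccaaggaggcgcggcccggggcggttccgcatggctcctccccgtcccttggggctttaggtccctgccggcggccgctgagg

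Amino acid carriers moved in both directions. In young TOM+ cDC2, 4 of 27 were higher and 4 lower, which is 14.8% each beside 21.0% and 19.5% of all genes. In TOM- DC2 6 were higher and 4 lower, which is 22.2% and 14.8% beside 19.4% and 16.9%. With library size alone these counts were 9 and 2, and 12 and 2. Slc7a5 (LAT1), the exchanger of large neutral amino acids such as leucine, stood at 51.7, 60.9 and 54.7 TPM in young TOM+, 44.1, 49.8 and 52.9 TPM in young TOM- and 24.9, 25.6 and 24.6 TPM in adult libraries, with log2FC 1.04 ± 0.12 (padj = 2.77e-05) and 0.82 ± 0.12 (padj = 0.000195). Its heavy chain Slc3a2 went the other way, with log2FC -0.85 ± 0.14 (padj = 0.000545) and -0.60 ± 0.14 (padj = 0.00631). In TPM, Slc7a5 amounted to 19.4%, 21.4% and 15.2% of Slc3a2 in young TOM+, 13.8%, 13.6% and 12.5% in young TOM- and 5.32%, 5.11% and 4.55% in adult libraries, without overlap between the 3 groups.

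The other light chains that pair with Slc3a2 did not move as a block. Slc7a8 (LAT2) was low and higher in young cells, at 0.88 to 2.1, 1.85 to 2.72 and 0.44 to 0.71 TPM (log2FC 1.22, padj = 0.0134, and 1.91, padj = 0.000855). In TOM+ cells it missed the threshold without young library 2 (padj = 0.0608) or adult library 3 (padj = 0.0573). Slc7a7 (y+LAT1), which exports cationic amino acids, fell in young TOM+ cDC2 (log2FC -0.45, padj = 0.0181) and did not pass in TOM- DC2 (log2FC -0.32, padj = 0.0825). In TOM+ cells it missed the threshold with library size alone (padj = 0.178) and without young library 3 or adult library 1 or 2 (padj = 0.0593, 0.0546 and 0.0513). In TOM- DC2 it passed without TOM+ library 1 or 3 (padj = 0.0492 and 0.0327). The cystine carrier Slc7a11 (xCT) stood at 3.26 to 7.60 TPM over the libraries and passed in neither comparison (log2FC 0.16 and 0.36). In TOM- DC2 it passed with library size alone (log2FC 0.58, padj = 0.0212) and without adult library 3 (log2FC 0.53, padj = 0.0448).

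Among carriers of cationic and neutral amino acids, the arginine transporter Slc7a1 (CAT1) was at 11.6 to 13.3, 9.61 to 12.5 and 7.10 to 7.93 TPM and was higher in young cells (log2FC 0.58, padj = 0.00187, and 0.39, padj = 0.0231). For TOM- DC2 it missed the threshold without TOM- library 3 or adult library 1 or 2 (padj = 0.145, 0.0727 and 0.0581). Its relative Slc7a2, the arginine carrier of activated macrophages, had a mean of 0.33 counts and was no member. The glutamine carrier Slc1a5 (ASCT2) was lower in young cells (log2FC -0.30, padj = 0.0148, and -0.34, padj = 0.00843), but with library size alone its padj was 0.339 and 0.262, and in TOM+ cells it was 0.0604 without adult library 2. None of the 6 Slc38 members passed in either comparison. Without adult library 3, however, Slc38a2 passed as higher in young TOM+ (log2FC 0.35 in place of 0.17, padj = 0.0215) and TOM- cells (log2FC 0.36, padj = 0.0215). So did Slc38a9 (log2FC 0.40 in place of 0.15, padj = 0.0195, and 0.46, padj = 0.0114). Slc38a2 also passed with library size alone (padj = 0.0416 and 0.0307). The family includes Slc38a2, Slc38a1 (65.2 to 95.5 TPM over all libraries) and Slc38a9, the lysosomal arginine sensor of mTORC1 (5.49 to 9.38 TPM). Slc36a1, a lysosomal proton-coupled carrier, stood at 0.99 to 1.52 TPM.

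Slc6a12 was the amino acid carrier of largest fall in young TOM+ cDC2, at 22.2 to 29.3 TPM in adult libraries, with log2FC -1.47 ± 0.15 (padj = 1.18e-05) and -0.82 ± 0.14 (padj = 0.000813) in the 2 comparisons. Slc6a13 passed for TOM- DC2 (log2FC 0.47, padj = 0.00526), while its log2FC in TOM+ cDC2 was -0.08. The proline transporter Slc6a20a was at 1.23 to 1.41 TPM in TOM- DC2 and 1.38 to 2.82 TPM in adults (log2FC -0.93, padj = 0.0484). These groups overlapped, and Slc6a20a missed the threshold in 13 of 19 alternatives, 4 of them without 1 of the libraries TOM- 1 or 3 or adult 2 or 3 (padj = 0.12, 0.119, 0.0704 and 0.205).

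Carriers of inorganic ions held 7 of the 12 members called lower in young TOM+ cDC2, which is 24.1% of the class beside 6.86% of all genes. Of these, Slc9a2 and Slc12a5 were among the 15 members with a mean under 10 counts in a group. Over the class, 7 of 29 were higher and 12 lower in TOM+ cDC2, which is 24.1% and 41.4% beside 21.0% and 19.5% of all genes. In TOM- DC2 7 were higher and 11 lower, which is 24.1% and 37.9% beside 19.4% and 16.9%. With library size alone they were 9 and 11 in TOM+ and 12 and 9 in TOM- cells, so that the balance in TOM- DC2 flipped. Slc9a2 (NHE2), a Na+/H+ exchanger of epithelia, had no count in any young TOM+ library, 0.14, 0 and 0 TPM in young TOM- and 2.38, 3.01 and 2.99 TPM in adult libraries. Adult cDC2 were at least 120-fold higher than young TOM+ cDC2, from a floor of 3 counts over the group (padj = 1.01e-05), and log2FC was -6.00 for TOM- DC2 (padj = 2.71e-05). Its relative Slc9a9 (NHE9) of endosomes stood at 18.5 to 28.9, 23.1 to 30.8 and 34.9 to 44.7 TPM, with the adult libraries on top (log2FC -0.82, padj = 0.000583, and -0.65, padj = 0.00334, the latter 0.0563 by limma on log2(TPM + 1)).

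Cation-chloride cotransporters moved in both directions. Slc12a2 (NKCC1), which loads cells with sodium, potassium and chloride, stood at 26.5, 15.2 and 20.5 TPM in young TOM+, 30.3, 19.5 and 24.4 TPM in young TOM- and 47.1, 49.1 and 57.7 TPM in adult libraries (log2FC -1.43 ± 0.16, padj = 2.69e-05, and -1.21 ± 0.16, padj = 0.000109). The thiazide-sensitive Slc12a3 was at 0.18 to 0.33, 0.36 to 0.70 and 1.80 to 2.07 TPM, and the potassium-chloride exporter Slc12a5 (KCC2) at 0 to 0.06, 0.04 to 0.16 and 0.50 to 0.90 TPM (log2FC -3.04, padj = 1.75e-05, and -4.17, padj = 0.000184, in TOM+). Both were low genes with every adult library above every young one. Slc12a7 (KCC4) was higher in young cells, at 3.69 to 4.19, 3.30 to 3.95 and 1.21 to 1.49 TPM (log2FC 1.36, padj = 1.89e-05, in TOM+).

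Of the bicarbonate carriers, Slc4a8 fell most, from 13.1, 13.5 and 20.2 TPM in adults to 5.31, 4.19 and 3.29 TPM in young TOM+ and 6.55, 6.02 and 6.64 TPM in young TOM- libraries (log2FC -1.99 ± 0.16, padj = 2.71e-06, and -1.43 ± 0.16, padj = 3.43e-05). The sodium-calcium exchangers Slc8a2 and Slc24a1 were lower in young TOM+ cDC2 as well, with log2FC -2.60 (padj = 0.000233) and -1.42 (padj = 0.00233), both at under 3 TPM in all libraries. Slc4a11 was higher in TOM- DC2 than in adults, at 2.51, 4.93 and 4.08 TPM against 1.02, 0.68 and 0.53 TPM (log2FC 2.01, padj = 0.00109), while young TOM+ cDC2 stood at 0.80, 1.08 and 1.77 TPM.

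Slc4a1 (band 3), the anion exchanger of red blood cells, had no count in adults, 0.10, 0.40 and 0.06 TPM in young TOM+ and 1.79, 0.19 and 0.10 TPM in young TOM- libraries. TOM- library 1, its highest, is the library with the summed erythroid TPM of 701. TOM- DC2 were at least 19.6-fold above adults (padj = 0.0164), and without that library, from 14 counts, at least 4.53-fold (padj = 0.0353). By limma on log2(TPM + 1) it did not pass (padj = 0.132). The part of erythroid RNA in this value was not tested. As Slc4a1 is among the 15 members with a mean under 10 counts in a group, its difference is partly built into the choice.

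Of 25 metal carriers, 8 were higher and 3 lower in young TOM+ cDC2, which is 32% and 12% beside 21.0% and 19.5% of all genes. In TOM- DC2 9 were higher and 2 lower, which is 36% and 8% beside 19.4% and 16.9%. With library size alone they were 13 and 2, and 16 and 2. Slc41a1, a magnesium carrier, stood at 21.1, 21.7 and 26 TPM in young TOM+, 30.1, 33.7 and 45.2 TPM in young TOM- and 69.4, 88.2 and 84.6 TPM in adult libraries (log2FC -1.94 ± 0.17, padj = 4.26e-06, and -1.30 ± 0.17, padj = 8.75e-05). Its relative Slc41a2 was also lower, at 0.24 to 0.41 TPM in young and 0.59 to 0.79 TPM in adult libraries (log2FC -1.21, padj = 0.0103, in TOM+).

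Slc40a1, the only known iron exporter, stood at 6.68, 5.10 and 6.12 TPM in young TOM+, 10.7, 10.2 and 10.2 TPM in young TOM- and 2.18, 2.64 and 0.94 TPM in adult libraries, without overlap between any of the groups. Its log2FC was 1.55 ± 0.26 (padj = 0.000542) in TOM+ and 2.31 ± 0.26 (padj = 3.28e-05) in TOM- cells. Hmox1, which releases iron from heme, ran in the same order, at 39.1 to 56.1, 67.1 to 80.4 and 9.07 to 17.5 TPM, and so did the summed TPM of the red pulp macrophage genes given above, of which Hmox1 is one. The part of macrophage RNA in the Slc40a1 values was not tested. The heme carrier Slc48a1 rose in young cells (log2FC 0.40 in both comparisons, padj = 0.00301 and 0.00378), and Slc11a1 was higher in TOM- DC2 than in adults (log2FC 0.73, padj = 0.00162), with log2FC -0.05 (padj = 0.818) in TOM+ cDC2.

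Of 10 zinc carriers of the Slc39 family, 3 were higher and 1 lower in young TOM+ cDC2, where 21.0% and 19.5% of all genes passed. Slc39a7 (ZIP7) of the endoplasmic reticulum stood at 86.3, 90.1 and 99.9 TPM in young TOM+, 83.0, 80.7 and 91.6 TPM in young TOM- and 59.3, 56.1 and 58.5 TPM in adult libraries (log2FC 0.55, padj = 0.000904, in TOM+ and 0.40, padj = 0.0081, in TOM- cells, the latter 0.0517 without TOM- library 3). Slc30a5 and Slc30a6, which form a zinc exporter into the Golgi, had log2FC 0.37 (padj = 0.00262) and 0.47 (padj = 0.00276), and Slc39a3 had 0.71 (padj = 0.00055). Slc39a11 was higher by 0.28 on the log2 scale (padj = 0.0261) and Slc39a13 was the member of the family that was lower (log2FC -0.34, padj = 0.0268). Slc39a11 missed the threshold without any young TOM+ library or adult library 2 (padj between 0.0579 and 0.0958). Slc39a13 did so without young TOM+ library 2 or 3 or adult library 1 (padj between 0.0632 and 0.102) or with library size alone (padj = 0.347). Slc39a8 (ZIP8), known for its role in activated macrophages, was at 0.35 to 1.56 TPM over all libraries and did not pass (log2FC -0.71, padj = 0.203, in TOM+). The copper importer Slc31a1 was higher in young TOM+ cDC2 (log2FC 0.47, padj = 0.0207), but not without young library 2 or 3 or adult library 1 or 2 (padj between 0.0649 and 0.0906).

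Of 15 sugar carriers, 2 were higher and 4 lower in young TOM+ cDC2, which is 13.3% and 26.7% beside 21.0% and 19.5% of all genes. In TOM- DC2 3 were higher and 5 lower, which is 20% and 33.3% beside 19.4% and 16.9%. With library size alone the counts were 4 and 4, and 3 and 3. Slc2a1 (GLUT1) was higher in young cells, at 75.9 to 80.9, 73.3 to 84.6 and 54.9 to 65.6 TPM (log2FC 0.28, padj = 0.0174, and 0.30, padj = 0.0140), and in TOM+ cells it missed the threshold without young library 3 or adult library 1 or 2 (padj = 0.0757, 0.0620 and 0.0593). In TOM- DC2 it did so without TOM- library 3 or adult library 1 (padj = 0.0924 and 0.0525). Slc2a3 (GLUT3) was lower, at 39 to 41.2, 33.1 to 41.7 and 59.2 to 69.8 TPM (log2FC -0.81, padj = 3.16e-05, and -0.92, padj = 1.62e-05). Slc2a6 (GLUT6), a lysosomal member of the family, stood at 22.2, 28.1 and 28.9 TPM in young TOM+, 21.1, 25.8 and 25.8 TPM in young TOM- and 47.2, 49.2 and 62.7 TPM in adult libraries (log2FC -1.13 ± 0.15, padj = 7.46e-05, and -1.30 ± 0.15, padj = 3.58e-05). The endoplasmic reticulum sugar phosphate exchanger Slc37a2 fell too (log2FC -0.71, padj = 0.00126, and -0.51, padj = 0.0104, the latter 0.0994 with library size alone).

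Of 21 Slc35 members 6 were higher and 4 lower in young TOM+ cDC2, where 21.0% and 19.5% of all genes passed. In TOM- DC2 5 were higher and 3 lower, where 19.4% and 16.9% of all genes passed. With library size alone the counts were 9 and 1, and 8 and 0. The abundant Slc35a4 and Slc35b1 were higher by a small margin, at 106 to 115 and 92 to 109 TPM in young TOM+ against 75.9 to 80.4 and 60 to 64.5 TPM in adult libraries (log2FC 0.43, padj = 0.00056, and 0.56, padj = 0.000575). Slc35a4 shares 152 bases with Apbb3 and its mean of 1910 counts by STAR stood beside 2776 by RSEM, so its level is uncertain. Slc35c1, the GDP-fucose transporter of the Golgi, stood at 30.8 to 34.9, 24.6 to 28.1 and 12 to 17.9 TPM (log2FC 1.00, padj = 0.000169, in TOM+). The low genes Slc35g1 and Slc35f2 were called higher in TOM+ cDC2, at 1.87 to 2.76 and 0.54 to 1.19 TPM against 0.08 to 0.55 and 0 to 0.29 TPM in adults (log2FC 2.78, padj = 0.000249, and 2.38, padj = 0.0322). Both are among the 15 members with a mean under 10 counts in a group, so these differences are partly built into the choice. For Slc35f2 the call was lost without young library 2 or 3 or adult library 1 or 2, with padj between 0.0537 and 0.111.

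Of 11 carriers of vitamins and cofactors, 4 were higher and 3 lower in young TOM+ cDC2, which is 36.4% and 27.3% beside 21.0% and 19.5% of all genes. In TOM- DC2 4 were higher and 2 lower, which is 36.4% and 18.2% beside 19.4% and 16.9%. With library size alone the counts were 7 and 2 in both. Slc46a3 had log2FC -0.74 ± 0.09 (padj = 5.99e-05) in TOM+ and -0.74 ± 0.09 (padj = 7.98e-05) in TOM- cells, and Slc44a2 had -0.90 ± 0.11 (padj = 4.06e-05) and -0.89 ± 0.11 (padj = 5.2e-05). The riboflavin transporter Slc52a2 went the other way, at 12.8 to 14.1, 11.8 to 15.1 and 6.51 to 6.87 TPM (log2FC 0.88, padj = 8.42e-05, in TOM+), and so did its relative Slc52a3, at 0.60 to 1.48 TPM in young TOM+ and 0.35 to 0.47 TPM in adult libraries (log2FC 1.26, padj = 0.0338). Slc52a3 missed the threshold in 5 of 19 alternatives, among them without adult library 2 or 3 (padj = 0.0931 for both) and without young TOM+ library 2 or 3 (padj = 0.142 and 0.0901). In TOM- DC2 (log2FC 1.28, padj = 0.0336) it missed without any TOM- library or adult library 2 or 3, with padj between 0.0586 and 0.0935. Slc19a1, which imports reduced folates and cyclic dinucleotides, stood at 4.17 to 6.09, 4.58 to 5.72 and 3.0 to 4.15 TPM and did not pass (log2FC 0.38, padj = 0.159, and 0.34, padj = 0.218). It passed with library size alone (padj = 0.0366 and 0.0439). Slc23a3 had 3 counts in adults, all of them in adult library 3, and was at 14.7 times that level in TOM- DC2 (95% exact interval 4.80 to 73.0, for counting error only; padj = 0.00805). Slc52a3 and Slc23a3 are among the 15 members with a mean under 10 counts in a group. For them a difference is partly built into the choice.

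Among the smaller classes, the peptide carrier Slc15a4 stood at 85.7, 93.5 and 87.8 TPM in young TOM+, 87.8, 82.8 and 91.1 TPM in young TOM- and 143, 150 and 129 TPM in adult libraries, all adult libraries being higher (log2FC -0.78 ± 0.10, padj = 5.81e-05, and -0.84 ± 0.10, padj = 4.1e-05). Its adaptor TASL, listed as 5430427O19Rik, was lower in young cells too (log2FC -0.61, padj = 0.000196), and so was Unc93b1, the chaperone of endosomal Toll-like receptors (log2FC -0.97, padj = 9.43e-06), while Irf5, which acts downstream of Slc15a4 and TASL, was higher (log2FC 0.25, padj = 0.0417). The other lysosomal peptide carrier, Slc15a3, stood at 23 to 34.3 TPM and did not pass in TOM+ cDC2 (log2FC -0.03) or TOM- DC2 (log2FC 0.24, padj = 0.129), the latter passing with library size alone (padj = 0.00569). Slc29a3 was higher in young cells (log2FC 0.60, padj = 0.000446, and 0.31, padj = 0.0297). In TOM- DC2 Slc29a3 missed the threshold without TOM+ library 3, TOM- library 1 or 3 or adult library 1 or 2, with padj between 0.0571 and 0.106. Slc29a1 did not pass (log2FC -0.10 and -0.18), the latter reaching padj = 0.0479 without adult library 3.

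Slc10a3, an orphan relative of the bile acid carriers, fell in both comparisons (log2FC -0.59, padj = 0.00168, and -0.62, padj = 0.00143). The carnitine transporters Slc22a5 and Slc22a21 were higher in young TOM+ cDC2 (log2FC 0.56, padj = 0.00272, and 1.14, padj = 0.000265), and as close relatives they can share reads. Slc22a5 had a mean of 272 counts by STAR and 384 by RSEM. The phosphate importer Slc20a1 did not pass (log2FC 0.15 and 0.36). In TOM- DC2 it passed with library size alone (padj = 0.00732), by limma on log2(TPM + 1) (padj = 0.0209) and without TOM- library 1 (padj = 0.00877). The adaptors differed from each other, with Slc9a3r1 slightly lower in young TOM+ cDC2 (log2FC -0.30, padj = 0.0183, but padj = 0.404 with library size alone, and 0.0768 and 0.0634 without young library 2 or adult library 1) and Slc9a3r2, a low gene at 1.79 to 3.02, 3.65 to 7.01 and 0.32 to 0.85 TPM, higher (log2FC 2.16, padj = 0.00181, and 3.15, padj = 0.000115). Slc9a3r2 is among the 15 members with a mean under 10 counts in a group, so its difference is partly built into the choice.

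**Figure D5:**
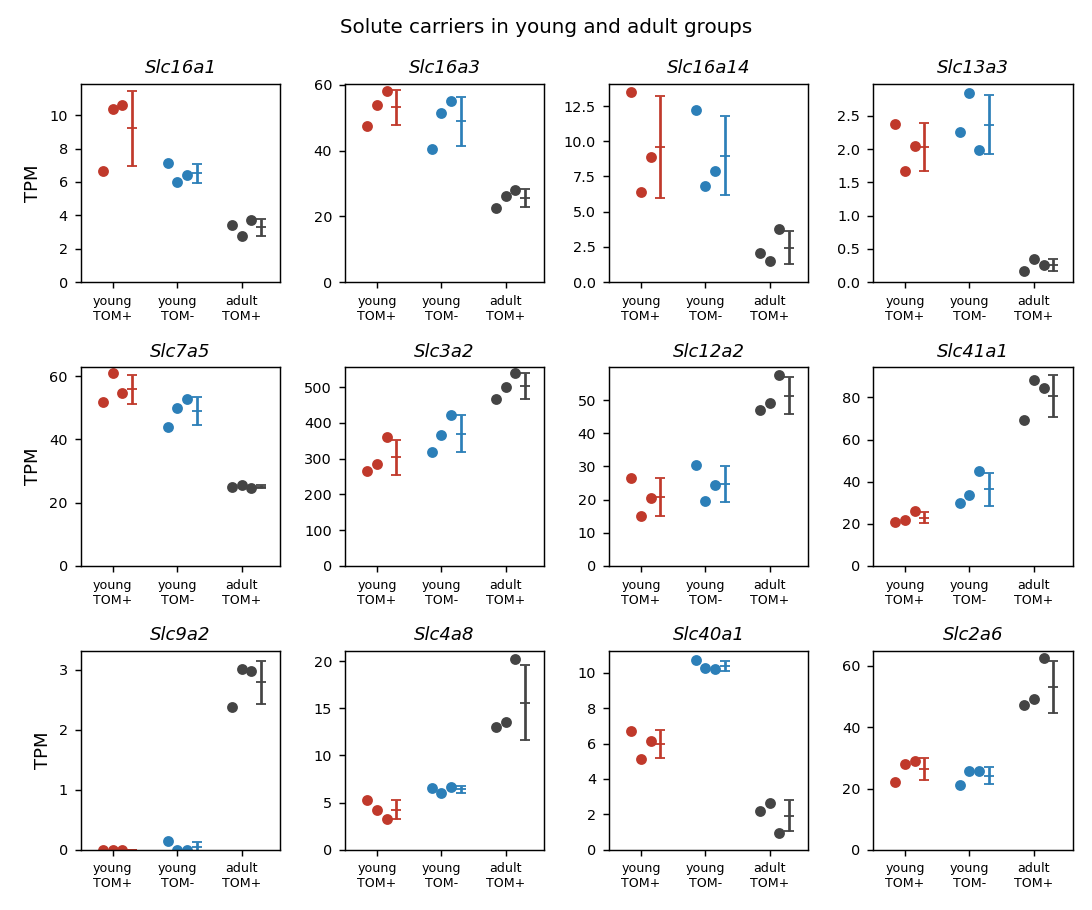
TPM in each of the 3 libraries of each group (points) with mean and SD (bar and whisker) for 12 solute carriers. Slc16a1, Slc16a3, Slc16a14, Slc13a3, Slc7a5 and Slc40a1 were higher in both young groups than in adults, and Slc3a2, Slc12a2, Slc41a1, Slc9a2, Slc4a8 and Slc2a6 were lower.

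Genes that work with these carriers showed differences of both directions. Of 14 partner and signalling genes, 4 were higher and 3 lower in young TOM+ cDC2, which is 28.6% and 21.4%. Of 19 genes of the amino acid response and mTORC1, 4 were higher and 2 lower, which is 21.1% and 10.5%, beside 21.0% and 19.5% of all genes. Psat1 of serine synthesis stood at 31.7 to 33.2, 23.8 to 28.7 and 10.9 to 13 TPM (log2FC 1.31, padj = 3.41e-06), and Sesn2, a leucine sensor upstream of mTORC1, was lower (log2FC -0.80, padj = 0.00104). Phgdh, the first enzyme of serine synthesis, was the member of that list that passed between the young groups, at 13.2 to 16.6 TPM in TOM+ and 34.8 to 49 TPM in TOM- libraries (log2FC -1.52, padj = 0.0015). Of 12 genes of iron and zinc handling, 3 were higher and 2 lower in young TOM+ cDC2 (25% and 16.7%), among them the transferrin receptor Tfrc (log2FC 0.65, padj = 0.00459) and the ferritin heavy chain Fth1 (log2FC -0.49, padj = 0.00014). Of 57 tested genes of the Slco, Mfsd and Abc families, 14 were higher and 11 lower (24.6% and 19.3%), near the shares of all genes. Of 37 mitochondrial Slc25a carriers with a mean of at least 10 counts, 11 were higher and 8 lower in young TOM+ cDC2 (29.7% and 21.6%) and none passed between the young groups, where 4 had an unadjusted p under 0.05.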

How the data were processed

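Bulk mRNA was sequenced in 9 libraries of sorted spleen cells, 3 per group, and groups were taken from the sample labels. The authors aligned reads to mm10 with STAR, and the deposited counts are its whole-number reads per gene without normalization, of which the unstranded column was used, since each stranded column held about 50.5% of the reads. STAR's summary lines (unmapped, multimapping, ambiguous, no feature), 26.1% to 31.6% of reads, stayed out of library sizes and tests. The authors also ran RSEM, and the deposited tables hold expected counts, TPM and FPKM per gene. TPM, relative to each library's total, were used for levels, expected counts (rounded) only in an alternative, and FPKM not at all. Versions of STAR and RSEM are not given in the sources used here. Total counts limit the precision, and exact intervals and floors cover counting error only.

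The 14452 genes that averaged 1 count or more were tested in R 4.3.3 with edgeR 4.0.16 (glmQLFit, glmQLFTest, TMM) on all 9 libraries in 3 groups, with Benjamini-Hochberg adjustment, and the SE of log2FC is its size divided by the square root of F. Alternatives used DESeq2 1.42.0, limma 3.58.1 on log2(TPM + 1) or log2(TPM + 0.1), other scaling and filters, fewer libraries, and a block by the number in the deposited library name. Same-numbered young TOM+ and TOM- libraries had r = 0.50, 0.18 and 0.33 across genes, and unlike-numbered ones r between -0.41 and 0.19. The pair numbered 91 (r = 0.179) thus lay no higher than the highest unlike-numbered pair (r = 0.185). The block is given beside the comparison of young groups. Simulated data tested the scripts. No libraries were copies (chi-square per gene at least 8.743 within a group).

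Members and gene lists were chosen with earlier results of these data known, as were the motifs. Named were the 12 largest rises and falls that passed in each comparison, the 12 of highest TPM, the highest of each class and a list of carriers with known roles in myeloid cells. Other members named to complete a family, a class or the replicate block were picked after their values were seen. Some genes, among them members counted in the totals, are not reported here by name. All 169 members matched a RefSeq position on GRCm38.p6.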

Additional observations from a re-analysis of the deposited data

Results flagged for a closer look

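The difference between young TOM+ cDC2 and young TOM- DC2 is also the test of whether their 2 differences from the same adult libraries are unequal, and it passed for the following solute carriers. The log2FC of this difference was -6.94 for Slc28a3, with 6 counts in the TOM+ group and a member only through the TOM- group. It was -2.23 for Slc27a2, which stood in TOM- DC2 at the level of the widely spread adult libraries. It was -0.77 for Slc11a1 and -0.54 for Slc6a13, which stood in young TOM+ cDC2 at the adult level. The summed TPM of the innate lymphoid and red pulp macrophage genes given above was also highest in the TOM- libraries, and their part in these values was not tested.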

How the results depend on the processing

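Of 44 named members that passed between young TOM+ and adult cDC2, 38 passed under all 19 alternatives, as did 38 of 49 for TOM- DC2 against adult and 2 of 5 (Slc28a3 among them) between the young groups, and no named member that passed changed direction. Between the young groups, members lower in TOM+ cDC2 numbered 8 without a filter on low counts, 9 by DESeq2 and 16 with the replicate block, which put 4 higher. Leaving out each library in turn gave 3 to 7 lower (3 without TOM+ library 2 or 3 or TOM- library 2 or 3) and 0 to 1 higher, the latter Slc16a1 without TOM+ library 1. For young TOM+ against adult, 64 were higher with library size alone and 23 lower by limma on log2(TPM + 0.1). For TOM- DC2 against adult, 75 were higher with library size alone, 19 lower by limma on log2(TPM + 1), which called 9 higher and 5 lower, and 18 lower by limma on log2(TPM + 0.1). A larger pseudocount shrinks differences of low genes by construction, and for the remainder the cause was not tested. Young and adult libraries shared only 2 numbers, and same-numbered pairs had r between 0.01 and 0.14, so there the number is no pairing. With the block 61 were higher and 39 lower in young TOM+ and 65 and 37 in TOM- cells. Between the young groups it added 15 members to those that passed and changed no other call. Membership by RSEM expected counts gave 170 genes, 168 of them shared.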

Other observations

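Of the solute carrier symbols below a mean of 10 counts, 41 were tested. Slc34a3, a sodium-phosphate cotransporter, was the 1 called lower in young TOM+ cDC2 than in TOM- DC2, where 1.16% of all genes were called. Slc26a1 was called lower in both young groups than in adults, beside 6.86% of all genes in TOM+ and 4.78% in TOM- cells, and Slc34a3, Slc35d3 and Slc43a1 were called higher in TOM- DC2 than in adults, beside 6.5% of all genes. They were picked after their values were seen. Abcc8, a subunit of ATP-sensitive potassium channels outside the solute carrier families, was listed at 0 in all TOM+ libraries of both ages and at 0.17 to 0.30 TPM in the 3 TOM- libraries (padj = 0.0345 between the young groups, edgeR).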
